A study of Mus musculus with 15 samples.

Results

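The liver transcriptomes of 15 male mice of the C57BL6J strain, 9.5 months old per the labels, were read for 8 genes of the PPARγ and lipid uptake pathway of fatty liver, among 54281 genes in the deposited table. The 8 genes were chosen for their known roles, and the Ensembl identifiers of the table were matched to their symbols. They and the gene lists used below were chosen with earlier results of these data known. Their counts beside shares of all genes are therefore descriptions only. They are Pparg, Cd36, Vldlr, Lpl, Fabp4, Mogat1, Aqp7 and Hilpda.

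The mice fell into 4 groups. DEN/HFD MCOPPB mice (n = 3) and DEN/HFD saline mice (n = 4) had been injected with 25 mg/kg of the liver carcinogen diethylnitrosamine (DEN) at 2 weeks of age and later fed a high fat diet (HFD), with 60% of its energy from lard, for 32 weeks. Chow MCOPPB mice (n = 5) and chow saline mice (n = 3) had received the vehicle of DEN and stayed on chow. MCOPPB, an agonist of the nociceptin receptor, was injected intraperitoneally at 5 mg/kg in 3 cycles of 5 days of injection and 2 days of wash-out, 21 days in all. The controls of each diet received saline on that schedule. No mouse had DEN without the diet or the diet without DEN, so those exposures cannot be told apart. The sample titles number the mice, with 1 library each.

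PPARγ is a nuclear receptor that forms a heterodimer with RXR and is activated by fatty acids. It drives fat storage in adipocytes, is low in the healthy mouse liver, and is known to be induced in hepatocytes of fatty livers. Lipoprotein lipase releases fatty acids from circulating triglyceride, the VLDL receptor takes up triglyceride-rich particles, CD36 carries fatty acids across the membrane, FABP4 binds them in the cell, and MOGAT1 esterifies them.

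Values are given as normalized counts, that is, reads of a gene after scaling libraries to a common depth, recovered from the deposited variance-stabilised log2 values. Estimated depth was 9.32 to 18.7 M reads per library. Differences and tests were computed on the log2 scale as deposited, which understates fold changes of low genes. Albumin was the most abundant transcript in 15 of 15 libraries, and 10 of 10 hepatocyte markers were above 0 in each of them. The 8 markers of skeletal and heart muscle summed to 3163 normalized counts in chow MCOPPB 4 and 3519 in chow saline 3, against 0 to 219 in the other 13 libraries (0 to 59.8 in DEN/HFD MCOPPB livers and 0 to 1.28 in DEN/HFD saline livers). DEN/HFD saline 4 lay on the second principal component at 8.53, against -17.6 to -8.88 for the other DEN/HFD saline livers. The first of 2 RNA integrity numbers (RIN) was 8.7 to 9.2 in DEN/HFD MCOPPB livers, 8.4 to 9.2 in DEN/HFD saline livers, 9.9 to 10 in chow MCOPPB livers and 9.0 to 9.7 in chow saline livers.

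Per kilobase of exon, the median level over the 15 libraries was highest for Cd36, at 338 normalized counts per kb. Fabp4 (36.9 per kb), Pparg (26.3) and Lpl (19.3) followed, and their ranges over the libraries overlapped. For Fabp4 the union of annotated exons was 4489 bases, the whole span of the gene, so intron length entered its value. That value is too low for a spliced transcript, and the place of Fabp4 relative to Cd36, Pparg and Lpl is not settled. Mogat1 (14.8 per kb) and Hilpda (13.05) came next, followed by Vldlr (3.34) and Aqp7 (1.21), whose ranges also overlapped with each other. Of the 8 genes, 7 passed the filter on low values, which asked for about 22.5 normalized counts in at least 3 libraries. Aqp7 passed that level in 1 library and was left out of the fit across genes. Hilpda passed it in 5 libraries, of which 3 were DEN/HFD MCOPPB livers, and Mogat1 in 8. Without the DEN/HFD MCOPPB livers Hilpda would have passed in 2 libraries and missed the filter, so it entered the fit through the group where it was high. Vldlr passed in 10 libraries, 2 of them from saline mice, so it entered through MCOPPB livers. Below, a member is left out of counts at an unadjusted p, of signs, of medians and of groups without overlap wherever it entered through the groups tested, and the counts are descriptions only.

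PPARγ and RXR bind direct repeats of the letters AGGTCA spaced by 1 base (DR1), and the 250 bases before the start sites of 4 members are shown with each AGGTCA, on either strand, in capitals. The sequences are from RefSeq, build GRCm38.p6, written 5′ to 3′ on the strand of the gene.
Pparg, start site 3, chr6:115421816-115422065, plus strand: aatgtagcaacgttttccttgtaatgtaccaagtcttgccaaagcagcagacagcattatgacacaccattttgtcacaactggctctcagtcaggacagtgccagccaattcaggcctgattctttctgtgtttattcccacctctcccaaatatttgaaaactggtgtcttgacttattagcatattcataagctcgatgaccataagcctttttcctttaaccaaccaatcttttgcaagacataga
Cd36, chr5:17835897-17836146, minus strand: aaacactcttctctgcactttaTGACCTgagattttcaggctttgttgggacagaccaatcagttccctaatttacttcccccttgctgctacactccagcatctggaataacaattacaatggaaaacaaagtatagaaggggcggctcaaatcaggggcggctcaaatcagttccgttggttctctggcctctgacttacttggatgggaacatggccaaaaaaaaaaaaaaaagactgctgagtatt
Vldlr, start site 1, chr19:27216234-27216483, plus strand: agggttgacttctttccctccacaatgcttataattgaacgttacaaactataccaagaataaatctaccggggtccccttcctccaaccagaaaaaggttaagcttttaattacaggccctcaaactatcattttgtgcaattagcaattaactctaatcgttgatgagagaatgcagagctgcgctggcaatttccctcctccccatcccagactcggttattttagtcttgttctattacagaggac
Aqp7, start site 1, chr4:41048137-41048386, minus strand: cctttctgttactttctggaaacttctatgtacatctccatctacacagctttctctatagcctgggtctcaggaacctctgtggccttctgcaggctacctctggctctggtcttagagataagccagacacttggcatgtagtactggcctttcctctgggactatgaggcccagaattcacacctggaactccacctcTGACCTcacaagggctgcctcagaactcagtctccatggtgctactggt
Cd36 and Aqp7 are the uptake and glycerol genes whose windows hold the element, at positions -228 and -49 relative to the start, and the capitals there are its reverse complement TGACCT. Pparg and Vldlr are shown as the receptor itself and as the gene with the largest MCOPPB difference on chow, and these windows hold none. The table had 11 start sites for 6 of the 8 members (Pparg, Cd36, Mogat1, Vldlr, Aqp7 and Hilpda). The other Pparg starts held the element at -28 and -9. In all, 5 of 11 member windows of 300 bases held AGGTCA on either strand, as did 16.3% of 32851 promoter windows of that length. The member windows with it belong to Pparg, Cd36 and Aqp7 only. The 2 Aqp7 windows overlap and share the match shown above at -49, so the 11 windows are not independent. The full repeat AGGTCANAGGTCA was in 0.0396% of the windows and its looser form AGGNCANAGGNCA, in which the first can lie, was in 0.381%. Neither was found in a member window.

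Taken over MCOPPB and saline mice together, Cd36, Pparg and Mogat1 had the smallest p-values between DEN/HFD and chow livers of the 6 members that entered the fit without DEN/HFD livers, each with a positive difference, but no member passed the threshold of an adjusted p of 0.05. The log2 difference was 1.19 ± 0.35 for Cd36 (SE; limma adjusted p = 0.0967), 0.57 ± 0.18 for Pparg (adjusted p = 0.121) and 0.64 ± 0.26 for Mogat1 (adjusted p = 0.223), each from 7 DEN/HFD and 8 chow livers. Hilpda, which entered through DEN/HFD livers, had a difference of 0.48 ± 0.17. Of the 7 members tested, 0 were called, against 1.32% of the 11568 genes tested. At an unadjusted p under 0.05, 3 of the 6 were higher in DEN/HFD livers, against 8.64% of all genes. The difference was positive for 6 of 6, with a median of 0.53, against 49.6% of all genes and a median of -0.0016. The remaining members had differences of 0.49 ± 0.29 for Lpl, 0.44 ± 0.25 for Vldlr and 0.25 ± 0.36 for Fabp4 (adjusted p of 0.421, 0.390 and 0.791), of which that of Fabp4 turned to -0.40 with RNA integrity as a covariate. Single-gene exact permutation tests were run within each treatment, two-sided and unadjusted over 48 such tests of the members. These exact tests gave p = 0.0184 for Pparg, 0.0189 for Cd36, 0.0184 for Hilpda and 0.00510 for Aqp7. Thus 4 of the 8 members fell under 0.05, of which only Pparg and Cd36 had entered the fit without DEN/HFD livers. By the same test 16.5% of the 11568 genes fell under 0.05. Hilpda entered through DEN/HFD livers and Aqp7 is not among those genes, so the count of 4 cannot be set against that share.

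The calls depended on single livers. With libraries left out in turn, the number of genes called was 6 without DEN/HFD MCOPPB 3, 31 without DEN/HFD MCOPPB 2, 45, 60 and 83 without DEN/HFD saline 1, 2 and 3, 95 without chow MCOPPB 1, 79 without chow saline 2 and 460 without DEN/HFD saline 4, in place of 153. Of these 15 fits, only that without DEN/HFD saline 4 called members. That liver had the lowest value of its group for 8 of 8 members and was singled out after its values were seen, so leaving it out raises the members' differences by construction. The values without it, given as a description, were 1.44 ± 0.27 for Cd36 (limma adjusted p = 0.00713) and 0.70 ± 0.14 for Pparg (adjusted p = 0.0117). With the first RIN as a covariate, the differences were 0.57 ± 0.54 for Cd36 and 0.37 ± 0.29 for Pparg, and 0 genes were called. RIN was highest in chow MCOPPB livers and its part in the differences was not tested beyond that fit.

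**Figure D1:**
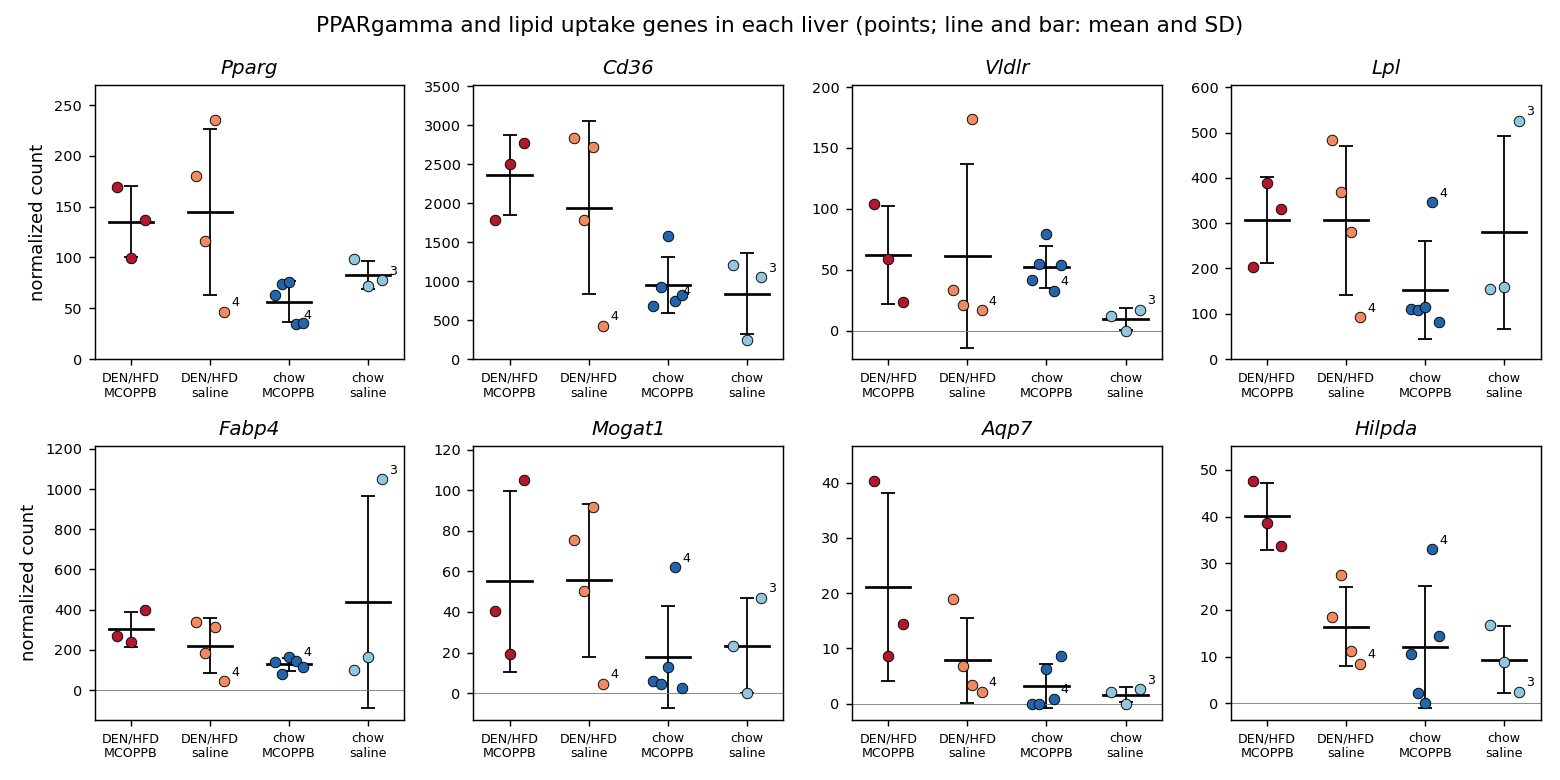
Normalized counts of the 8 genes (y axes) in each liver, by group; points are livers, the line and bar are the mean and SD, and the digits 3 and 4 mark chow saline 3, chow MCOPPB 4 and DEN/HFD saline 4. DEN/HFD saline 4 is the lowest of its group in all 8 panels, and chow saline 3 has the highest Fabp4 (1048) and Lpl (526) of all livers.

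Pparg, which encodes the receptor, had 169, 99.1 and 137 normalized counts in DEN/HFD MCOPPB livers and 180, 117, 235 and 46.6 in DEN/HFD saline livers. In chow MCOPPB livers it had 62.9, 73.5, 76.2, 34.4 and 35.9, and in chow saline livers 98.7, 72.3 and 77.8. Every DEN/HFD MCOPPB liver was above every chow MCOPPB liver, while the saline groups overlapped through DEN/HFD saline 4. The mean was 135 ± 34.9 in DEN/HFD MCOPPB livers, against 56.6 ± 20.2 in chow MCOPPB livers (SD, n = 3 and 5), a ratio of 2.38. On the log2 scale these groups differed by 0.73 ± 0.25 (SE; limma adjusted p = 0.234; exact permutation p = 0.0179, the smallest that 3 against 5 livers allow). Between DEN/HFD saline and chow saline livers it was 0.40 ± 0.26 (adjusted p = 0.622), with means of 145 ± 81.4 and 82.9 ± 13.9 (SD, n = 4 and 3). The order of the group means of normalized counts was DEN/HFD saline, DEN/HFD MCOPPB, chow saline and chow MCOPPB. The DEN/HFD groups differed from each other by less than their SD. On the log2 scale their order was reversed, with DEN/HFD MCOPPB livers higher than DEN/HFD saline livers by 0.018 ± 0.26 (SE).

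Cd36, the fatty acid transporter, had 1785, 2510 and 2777 normalized counts in DEN/HFD MCOPPB livers and 2836, 1788, 2725 and 429 in DEN/HFD saline livers. It had 685, 922, 1574, 748 and 826 in chow MCOPPB livers and 1213, 245 and 1054 in chow saline livers. The MCOPPB groups did not overlap, and in the saline groups 3 of 4 DEN/HFD livers were above all chow livers. The mean was 2357 ± 514 in DEN/HFD MCOPPB livers, against 951 ± 359 in chow MCOPPB livers (SD, n = 3 and 5), a ratio of 2.48. The log2 difference was 1.27 ± 0.50 (SE; limma adjusted p = 0.297; exact permutation p = 0.0179). In saline livers it was 1.09 ± 0.52 (adjusted p = 0.459) with a ratio of means of 2.32, and without DEN/HFD saline 4 it was 1.66. In a fit of the MCOPPB groups alone, Cd36 was called (adjusted p = 0.0324), with 135 genes called in all.

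Vldlr, the receptor for triglyceride-rich lipoproteins, was the member that differed most with MCOPPB on chow. It had 41.6, 55.0, 79.1, 32.9 and 53.5 normalized counts in chow MCOPPB livers, against 11.8, 0 and 17.0 in chow saline livers. These groups did not overlap. On the log2 scale the difference was 0.94 ± 0.32 (SE; limma adjusted p = 0.348; exact permutation p = 0.0179, n = 5 and 3), which did not pass the threshold across genes. In DEN/HFD livers it had 104, 59.1 and 23.2 with MCOPPB, against 33.6, 21.3, 174 and 16.7 with saline, and these groups overlapped. DEN/HFD saline livers exceeded chow saline livers by 0.86 ± 0.34 on the log2 scale (adjusted p = 0.344), and DEN/HFD MCOPPB livers exceeded chow MCOPPB livers by 0.066 ± 0.32 (adjusted p = 0.954), a difference whose sign turned without DEN/HFD MCOPPB 1 (-0.18) and with RIN as a covariate (-1.19). Chow saline livers had the lowest mean of the 4 groups, 9.60 ± 8.72 (SD, n = 3), and the other means lay between 52.4 and 62.1, closer to each other than their SDs. The difference between the MCOPPB effects in the 2 diets, -0.79 ± 0.47, was not past the threshold (adjusted p = 0.842). The differences of chow MCOPPB and of DEN/HFD saline livers from chow saline livers share the same 3 controls.

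Lpl, the lipase that frees fatty acids from circulating triglyceride, had 202, 389 and 330 normalized counts in DEN/HFD MCOPPB livers and 483, 368, 280 and 92.8 in DEN/HFD saline livers. It had 111, 108, 114, 346 and 82.1 in chow MCOPPB livers and 155, 159 and 526 in chow saline livers. In each chow group 1 liver stood well above the others. Those livers, chow MCOPPB 4 and chow saline 3, were the ones with the muscle transcripts, and Lpl is known to be strongly expressed in muscle and fat. Of the 8 muscle markers, Acta1, which encodes skeletal actin, had 671 normalized counts in chow MCOPPB 4 and 1264 in chow saline 3, against 0 to 43.2 elsewhere. The log2 difference for Lpl was 0.82 ± 0.39 between DEN/HFD MCOPPB and chow MCOPPB livers (SE; limma adjusted p = 0.409) and 0.13 ± 0.41 between DEN/HFD saline and chow saline livers (adjusted p = 0.941), and the difference in saline livers was -0.11 without chow saline 1 and -0.039 after rescaling without mitochondrial transcripts, where the median of all genes was -0.14. Without the livers that had muscle transcripts, an exclusion chosen after seeing the data, the difference over both treatments was 0.86 ± 0.23 (adjusted p = 0.0799) in place of 0.49, still short of the threshold. In the same fit Mogat1 had 0.90 ± 0.25 (adjusted p = 0.0829) and no member was called. What part muscle RNA had in the Lpl counts was not tested beyond this. In whole liver, fewer cells of a type and less RNA per cell cannot be told apart.

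Fabp4, the fatty acid binding protein of adipocytes, macrophages and endothelium, had 267, 238 and 399 normalized counts in DEN/HFD MCOPPB livers and 339, 185, 315 and 45.2 in DEN/HFD saline livers. It had 140, 79.4, 164, 143 and 114 in chow MCOPPB livers and 101, 166 and 1048 in chow saline livers. All DEN/HFD MCOPPB livers were above all chow MCOPPB livers, with means of 301 ± 86.1 and 128 ± 32.4 (SD, n = 3 and 5) and a ratio of 2.36. The log2 difference was 0.89 ± 0.47 (SE; limma adjusted p = 0.470; exact permutation p = 0.0179). In saline livers the difference was -0.45 ± 0.49 (adjusted p = 0.794), and without chow saline 3 it was 0.36. Chow saline 3 also carried adipocyte transcripts. Adipoq, which encodes adiponectin, had 147 normalized counts there, against 0 to 2.27 in DEN/HFD livers and 0 to 44.2 in the other chow livers. Over the 8 adipocyte markers, the sum was 128 to 601 in DEN/HFD MCOPPB livers, 42.6 to 974 in DEN/HFD saline livers, 41.2 to 73.5 in chow MCOPPB livers and 119 to 516 in chow saline livers, and Cidec alone had 20.1 to 864 in DEN/HFD livers. Retn, which encodes resistin, was at 0 in every DEN/HFD liver, and Lep, the leptin gene, was at 0 in 6 of 7. Cfd, which encodes adipsin, had 17.0, 0 and 3.64 in DEN/HFD MCOPPB livers and 10.4 to 87.6 in DEN/HFD saline livers, against 0 to 5.48 in chow MCOPPB livers and 8.51, 0 and 138 in chow saline livers. Of the other markers on the list, Plin1 was at 2.58 or less and Acvr1c at 7.06 or less in DEN/HFD livers, and Adrb3 was above 0 in 15 of 15 libraries. The part of adipose RNA in Fabp4 was not tested.

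**Figure D2:**
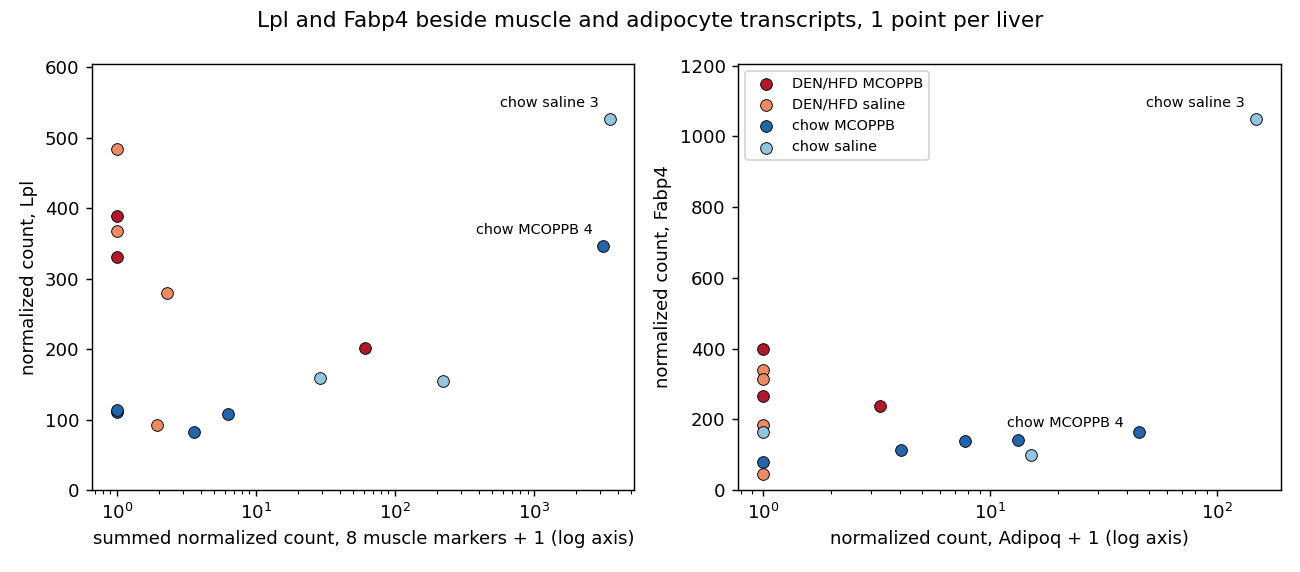
Left, Lpl (y axis, normalized count) against the summed count of 8 muscle markers plus 1 (log x axis); right, Fabp4 against Adipoq plus 1 (log x axis), 1 point per liver, coloured by group. Chow saline 3 is at the upper right of both panels (Lpl 526, Fabp4 1048, Adipoq 147). DEN/HFD livers have 0 to 59.8 summed muscle marker counts and 0 to 2.27 Adipoq counts. Adipoq is 1 of 8 adipocyte markers, and the others are not plotted. The 8 summed to 128 to 601 in DEN/HFD MCOPPB livers and 42.6 to 974 in DEN/HFD saline livers.

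Macrophages also express Fabp4, Lpl and Cd36, and some of their markers were higher in DEN/HFD livers. Of 15 Kupffer cell and macrophage markers tested, 3 were called higher over both treatments and 0 lower: Cd68, a lysosomal protein of macrophages (0.80 ± 0.17, limma adjusted p = 0.0296), C1qc, a complement subunit (0.67 ± 0.16, adjusted p = 0.0441) and Cd74, the MHC class II invariant chain (1.31 ± 0.31, adjusted p = 0.0471). The markers summed to 4417 to 8054 normalized counts in DEN/HFD MCOPPB livers, 3270 to 7647 in DEN/HFD saline livers, 3049 to 5985 in chow MCOPPB livers and 2129 to 2430 in chow saline livers. At an unadjusted p under 0.05, 9 of these 15 markers were higher and 1 was lower. Of the 8 markers of lipid-associated macrophages, 0 were called. Positive differences were seen for 8 of 8, with a median of 0.65, and 7 of 8 were higher at an unadjusted p under 0.05. Trem2, Gpnmb and Itgax stayed below the filter level in every chow liver (at most 12.5, 14.6 and 16.7 normalized counts). Among chow livers, Mmp12 passed it only in chow MCOPPB 5 (39.3). These genes entered the fit through DEN/HFD livers, which favours a positive sign. The counts of both macrophage lists, which share Itgax, are therefore descriptions only and cannot be set against the share of all genes. In addition, 0 of 15 endothelial markers were called, with a median of 0.11. Of 12 markers of stellate cells and fibroblasts, 1 was called higher, the collagen gene Col1a2 (1.06 ± 0.24, adjusted p = 0.0370). With single libraries left out in turn, Cd68 was called in 7 of 15 fits, C1qc in 4, and Cd74 and Col1a2 in 3 each, with limma adjusted p of 0.0866, 0.104, 0.144 and 0.128 without DEN/HFD MCOPPB 3. Without the 2 libraries that held muscle transcripts, Cd74 was called (adjusted p = 0.0442), and Cd68, C1qc and Col1a2 were not (0.0530, 0.0784 and 0.0724). With no filter on low values none of the 4 was called (0.0698 for Cd68, 0.0794 for C1qc, 0.0879 for Cd74 and 0.0799 for Col1a2), and after rescaling without mitochondrial transcripts C1qc (0.0900) and Cd74 (0.0836) were not. Of 5 muscle markers and 10 hepatocyte markers tested 0 were called, and of 3 adipocyte markers 1 was, Cidec, which is also a PPARγ target. Cidec entered the fit through DEN/HFD livers. What part these cells had in the members' levels was not tested.

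Mogat1, which makes diacylglycerol from monoacylglycerol, had 40.4, 19.4 and 105 normalized counts in DEN/HFD MCOPPB livers and 75.3, 50.2, 91.8 and 4.76 in DEN/HFD saline livers. It had 6.16, 4.31, 13.1, 62.0 and 2.63 in chow MCOPPB livers and 23.1, 0 and 47.1 in chow saline livers. In 4 of 5 chow MCOPPB livers it was below all DEN/HFD MCOPPB livers, and chow MCOPPB 4 and chow saline 3 were again the highest of their groups. Between the MCOPPB groups it differed by 0.69 ± 0.38 on the log2 scale (SE; limma adjusted p = 0.486), and between the saline groups by 0.59 ± 0.39 (adjusted p = 0.625). Exons of Mogat1 overlap those of BC035947 on the opposite strand, and the strand setting of the counting is not given in the sources used here, so its counts are uncertain to that extent. BC035947 itself had 0 to 18.7 normalized counts.

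Aqp7, a channel for glycerol and water, was the lowest member per kilobase and came close to the detection floor. It had 40.4, 8.53 and 14.4 normalized counts in DEN/HFD MCOPPB livers and 18.9, 6.73, 3.43 and 2.14 in DEN/HFD saline livers. It had 0, 0, 6.22, 0.862 and 8.68 in chow MCOPPB livers and 2.13, 0 and 2.55 in chow saline livers. The DEN/HFD MCOPPB livers overlapped the chow MCOPPB livers only between 8.53 and 8.68. The order of the group means was DEN/HFD MCOPPB, DEN/HFD saline, chow MCOPPB and chow saline, at 21.1, 7.79, 3.15 and 1.56, and only the exact permutation test over both treatments (p = 0.00510, unadjusted) was under 0.05.

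Hilpda, a hypoxia-inducible lipid droplet protein that inhibits the lipase ATGL, had its highest mean in DEN/HFD MCOPPB livers. It had 47.7, 38.6 and 33.7 normalized counts there, against 18.6, 27.4, 11.3 and 8.52 in DEN/HFD saline livers. It had 10.5, 2.31, 0, 33.0 and 14.4 in chow MCOPPB livers and 16.8, 8.84 and 2.52 in chow saline livers. The DEN/HFD MCOPPB livers overlapped with no other group, although chow MCOPPB 4, at 33.0, lay just under their lowest value of 33.7. The log2 difference was 0.71 ± 0.23 from chow MCOPPB livers (SE; exact permutation p = 0.0536) and 0.47 ± 0.24 from DEN/HFD saline livers (exact permutation p = 0.0571). No p from the fit across genes is given for these differences, since Hilpda entered it through the DEN/HFD MCOPPB livers. The DEN/HFD saline livers and both chow groups had means of 16.4, 12.1 and 9.38, which differed by less than their SDs.

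By pair of groups, 0 of 7 members were called in DEN/HFD MCOPPB against chow MCOPPB livers, where 0.571% of all genes were. Without Hilpda, 2 of 6 were higher at an unadjusted p under 0.05 (Pparg and Cd36), against 5.98% of genes, and 3 of 6 had groups that did not overlap (those and Fabp4), against 4.63%. In DEN/HFD saline against chow saline livers 0 of 7 were called, against 0.0519% of genes, and 1 (Vldlr) was higher at an unadjusted p under 0.05, against 5.46% of genes. The comparisons of the MCOPPB groups and of the saline groups share no livers. The log2 difference was positive for 6 of 6 members between the MCOPPB groups and for 6 of 7 between the saline groups, against 49.4% and 51.4% of all genes.

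**Figure D3:**
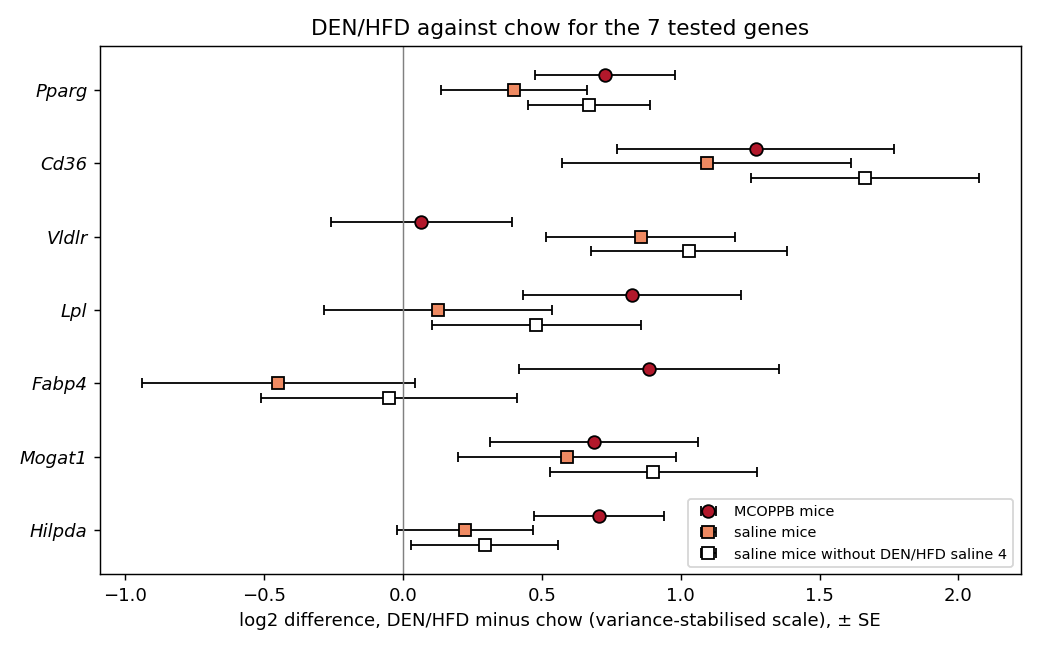
Log2 difference, DEN/HFD minus chow, with its SE (x axis) for the 7 tested genes in MCOPPB mice (circles), in saline mice (filled squares) and in saline mice without DEN/HFD saline 4 (open squares). Fabp4 differs by 0.89 in MCOPPB mice and by -0.45 in saline mice, and leaving out the 1 liver moves Cd36 to 1.66 in saline mice.

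For MCOPPB itself, 0 of 7 members were called on chow, where 0.320% of genes were. On chow 1 member, Vldlr, was higher at an unadjusted p under 0.05, against 4.76% of genes, and had groups that did not overlap, against 2.64%. The difference on chow was positive for 2 of 7 members, with a median of -0.070, against 50.1% of genes. In DEN/HFD livers 0 of 7 were called, against 0.0259% of genes. Without Hilpda, whose MCOPPB livers were above all saline livers, 0 of 6 had groups that did not overlap, against 3.22% of genes. The log2 difference was positive for 6 of 6, with a median of 0.13, against 49.3%. DEN/HFD saline 4 had the lowest value of its group for 8 of 8 members, which favours a positive sign. Without that liver, singled out after its values were seen, the mean log2 value was lower with MCOPPB for Pparg, Cd36, Mogat1, Lpl and Vldlr. On normalized counts of all livers, the MCOPPB to saline ratio of means was 0.933 for Pparg and 0.991 for Mogat1. It was 1.00 to 1.36 for Lpl, Vldlr, Cd36 and Fabp4. Over both diets 0 of 7 were called, against 0.372% of genes, with Vldlr at 0.56 ± 0.25 (SE). Without Vldlr and Hilpda, which entered through MCOPPB livers, 0 of 5 were higher at an unadjusted p under 0.05, against 3.36% of genes. The median difference of these 5 was -0.15, against 8.88e-05 for all genes, and 1 of 5 was positive, against 50.0% of genes. By exact permutation over both diets, 0 of 8 members were under 0.05, against 6.68% of the 11568 genes fitted, which leave out Aqp7. The difference between the MCOPPB effects in the 2 diets was called for 0 of 7, against 0.0692% of genes. Its largest value was that of Fabp4, 1.34 ± 0.68 (adjusted p = 0.835), which was 0.53 without chow saline 3. In chow MCOPPB against chow saline livers, 14 of the 15 Kupffer cell and macrophage markers were positive with a median of 0.55, and 8 of 15 were higher at an unadjusted p under 0.05, but 0 were called. In DEN/HFD livers 12 of 15 were positive with a median of 0.22, and over both diets 14 of 15 with a median of 0.44, again with 0 called. Their part in the members' values was not tested.

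Over both treatments, 20 of 23 other genes known as PPARγ targets in fatty liver or fat were tested. Of these, 3 were called higher in DEN/HFD livers and 0 lower, with a median log2 difference of 0.26. Of all genes, 0.743% were called higher and 0.579% lower (86 and 67 genes, or 44 and 122 after rescaling without mitochondrial transcripts). Each of the 3 acts on lipid droplets. Cidec and Cidea entered the fit through DEN/HFD livers, where they were high, and only Fitm1 did not. The count of 3 is therefore a description and cannot be set against these shares. The adjusted p of Cidec and Cidea, here and in the fits below, are descriptions only. Cidec, which promotes droplet fusion, had 367, 118 and 578 normalized counts in DEN/HFD MCOPPB livers and 466, 261, 864 and 20.1 in DEN/HFD saline livers, against 0 to 17.4 in chow MCOPPB livers and 2.64 to 92.6 in chow saline livers. Its log2 difference was 2.17 ± 0.41 (SE; limma adjusted p = 0.0177). Cidea, a related droplet protein, had 215, 29.4 and 464 in DEN/HFD MCOPPB livers and 320, 219, 437 and 4.25 in DEN/HFD saline livers. It was at 0 in 5 of 5 chow MCOPPB livers and 1 chow saline liver, and had 75.6 and 10.9 in the others, a difference of 2.09 ± 0.42 (adjusted p = 0.0233). Fitm1, which helps droplets form, differed by 0.81 ± 0.16 (adjusted p = 0.0225). Here too DEN/HFD saline 4 was the lowest of its group for Cidec and Cidea, as for Plin4, a droplet coat protein, at 18.7 against 144 to 259.

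**Figure D4:**
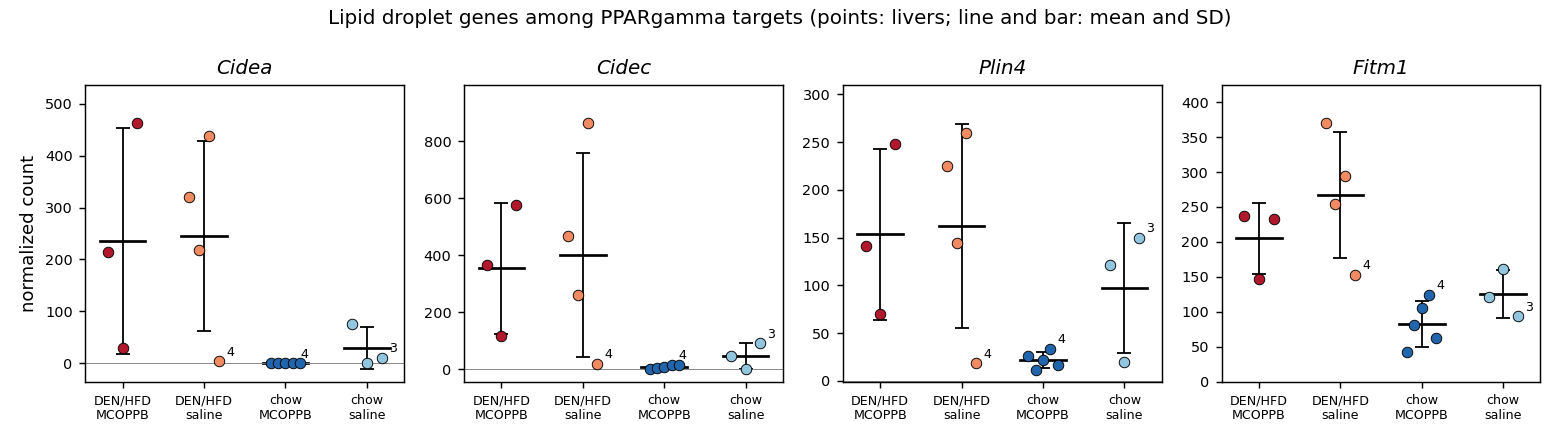
Normalized counts (y axes) of 4 lipid droplet genes in each liver, by group; points are livers, the line and bar are the mean and SD, and digits mark livers as in the plot of the 8 genes. Cidea is at 0 in all 5 chow MCOPPB livers, and DEN/HFD saline 4 is at 4.25 for Cidea and 20.1 for Cidec.

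Leaving out single libraries changed some of these calls. Cidec was called in 14 of 15 such fits, Fitm1 in 13, Cidea and Fabp2 in 12, and the least certain fit was the one without DEN/HFD MCOPPB 3, with adjusted p of 0.0719 for Cidec, 0.0777 for Fitm1, 0.0811 for Cidea and 0.0860 for Fabp2. Of the other fits, the one without chow saline 2 lost Cidea (limma adjusted p = 0.0516), the one without DEN/HFD saline 1 lost Cidea (0.0541), Fitm1 (0.0534) and Fabp2 (0.0541), and the one without DEN/HFD MCOPPB 2 lost Fabp2 (0.0695). Without both libraries that held muscle transcripts, Cidec, Cidea, Fitm1 and Fabp2 were each called (adjusted p of 0.0298, 0.0460, 0.0370 and 0.0298). With RIN as a covariate none of these genes was called, and Cidec had a log2 difference of 1.57 (adjusted p = 0.494). With no filter on low values Cidea was not called (0.0545), and after rescaling without mitochondrial transcripts Fabp2 was not (0.0686).

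Of 13 other genes of fatty acid uptake, binding and activation, 1 was called over both treatments. That was Fabp2, the intestinal-type fatty acid binding protein, at 0.93 ± 0.19 (SE; limma adjusted p = 0.0249). It was also called between the MCOPPB groups (1.25 ± 0.24, adjusted p = 0.0257, or 0.167 without DEN/HFD MCOPPB 3 and 0.0541 after rescaling without mitochondrial transcripts), with 2676, 2254 and 2599 normalized counts in DEN/HFD MCOPPB livers against 650 to 1311 in chow MCOPPB livers. Fabp5, the epidermal-type binding protein, had a difference of -1.47 ± 0.44 (adjusted p = 0.1001), and the median of the list was -0.13. Of 13 tested genes of glycerolipid esterification 0 were called, with a median of -0.0047 and with Gpat3, a glycerol-phosphate acyltransferase, at 0.72 ± 0.21 (adjusted p = 0.0985). The 13 other PPAR and RXR receptors and coregulators had a median of -0.13 and 0 calls. Ppara, the PPAR of fatty acid oxidation, had -0.43 ± 0.28 (adjusted p = 0.478).

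Of 16 lipoprotein receptors and lipase modulators 0 were called, with a median of 0.056 and with endothelial lipase, Lipg, at -0.57 ± 0.15 (limma adjusted p = 0.0624). Of 6 tested genes of glycerol transport and use 0 were called, with a median of 0.0073. Of 13 hypoxia targets and genes of the ATGL axis, the context of Hilpda, 1 was called higher and 1 lower. Slc2a1, the glucose transporter GLUT1, had a difference of 0.58 ± 0.12 (adjusted p = 0.0266) and Vegfa, the vascular growth factor, of -0.98 ± 0.23 (adjusted p = 0.0438). Slc2a1 was called in 10 and Vegfa in 5 of 15 fits with a library left out, and neither without DEN/HFD MCOPPB 3, at adjusted p of 0.0866 and 0.141. Without the libraries with muscle transcripts, Slc2a1 was called (adjusted p = 0.0325) and Vegfa was not (0.0817). With no filter on low values neither was called (0.0691 and 0.0799), and after rescaling without mitochondrial transcripts Slc2a1 was not (0.0567).

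Across the 15 libraries, the non-member genes reported here whose log2 values followed Pparg most closely were Col3a1 (Pearson r = 0.92), Apoa4 (0.92) and Cidea (0.89). Among those closest to Cd36 were Tceal8 and Sntb1 (0.93 each), and those closest to Mogat1 were Abcc3 (0.96), Snhg18 (0.88) and Plin4 (0.87). For Lpl they were Tpm2 (0.93), Arpp19 and Ppp1r21 (0.89 each), for Fabp4 Gsn (0.88), Iqsec1 and Cavin1 (0.87 each), for Vldlr Rhpn2, Znhit6 (0.86 each) and Nrp2 (0.84), and for Hilpda Lrrc32 (0.88), Cfp (0.86) and Imp3 (0.82). These are descriptions over libraries that share groups and depth scaling.

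In the genome (GRCm38, GENCODE M21) the members are spread over 7 chromosomes. Pparg lies at chr6:115360951-115490399 and Hilpda at chr6:29272488-29275446, both on the plus strand. Cd36 lies at chr5:17781690-17888801, Fabp4 at chr3:10204088-10208576 and Aqp7 at chr4:41033074-41048139, all on the minus strand. Mogat1 lies at chr1:78510991-78538173, Lpl at chr8:68880491-68907448 and Vldlr at chr19:27216484-27254231, all on the plus strand. All 8 are protein-coding.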

How the data were processed

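Total RNA of 15 mouse livers was sequenced as directional single-end reads of 75 nt, with 250 ng of RNA per library, per the labels' protocols. The submitters' processing notes name Trimmomatic, STAR 2.7.0e, HTSeq, DESeq2 and the builds GRCm38 and mm10. The authors deposited 1 table of log2 values after a variance-stabilising transformation, whose lowest value, 5.49, stood for 0 reads. The values were inverted to normalized counts. Whole reads could not be recovered, since 15.1% to 45.2% of low values per library lay within 0.01 of a whole read, so no count test was run and depths are estimates. A name was found for 54107 of the 54281 identifiers.

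The 11568 genes that exceeded the lowest value by 1 log2 unit or more in 3 or more libraries were fitted with limma 3.58.1 (R 4.3.3) on 4 group means with a mean-variance trend, with Benjamini-Hochberg adjustment over all of them and a threshold of 0.05. The fit covered 4 pairs of groups, the difference between the MCOPPB effects, and diet and MCOPPB in an additive model. Single members were tested by two-sided exact permutation (Python 3.11.15), within strata where both treatments or diets entered. The fit was also run on simulated data with independent noise and changes larger than the members' differences. That run cannot show how the fit handles smaller changes or single outlying livers. Groups came from sample titles. Replicate numbers were not used as pairs in the main fit. Residuals of 19 same-numbered pairs had a mean r of -0.027, with 5 over 0.1. The 64 other pairs had a mean r of 0.0084, with 17 over 0.1. With so few livers per group this check cannot exclude a pairing. The limma p-values set each difference against the spread between these livers, and the permutation p-values count arrangements of the group labels.

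The members and gene lists were chosen with earlier results of these data known. All 8 members are named, and from each other list the called genes and up to 4 with the smallest p for diet and 2 for MCOPPB. An item among the genes most like the members is not reported here. Alternatives were other filters, scales, normalizations, weights, covariates, a replicate block and leaving out each library.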

Additional observations from a re-analysis of the deposited data

Results flagged for a closer look

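Lpl had 346 normalized counts in chow MCOPPB 4, far above the other 4 chow MCOPPB livers, which had 82.1 to 114. It was the one value that stood apart by Dixon's test at the 95% level among 16 combinations of member and group of 4 or 5 livers. By chance, about 1 in 20 such combinations would be flagged. The same liver held 3163 normalized counts of muscle markers, against 0 to 5.34 in the other chow MCOPPB livers.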

How the results depend on the processing

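The count of members called was 0 in each of the 7 comparisons and kept that value under the alternatives run, except that 1 (Cd36) was called between DEN/HFD MCOPPB and chow MCOPPB livers in a fit of those groups alone, and 0 to 2 were called over both treatments when single libraries were left out (2, Pparg and Cd36, without DEN/HFD saline 4). By exact permutation, 2 to 5 members were under 0.05 for diet over both treatments with a library left out, in place of 4 (2 without chow saline 2), and 0 to 1 for MCOPPB over both diets, in place of 0 (1 without DEN/HFD MCOPPB 3 or without DEN/HFD saline 3). These counts are over all 8 members. They include Aqp7, which was not fitted, and members that entered the fit through the groups tested.

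Signs were followed under the alternatives for the diet differences of the fitted members. Most differences between MCOPPB and saline livers were not followed, so the list below is not complete for MCOPPB. Without the DEN/HFD saline liver that was lowest for the members, Pparg, Cd36, Mogat1, Lpl and Vldlr turned to lower values with MCOPPB in DEN/HFD livers. Among the differences followed, the sign turned for those below, none of them past the threshold, and the cause was not tested. Lpl between DEN/HFD saline and chow saline livers was -0.039 after rescaling without mitochondrial transcripts, -0.022 with array weights, and -0.11 to 0.58 with a library left out. Vldlr between DEN/HFD MCOPPB and chow MCOPPB livers was -1.19 with RIN as a covariate, -0.058 with the replicate block, -0.18 to 0.33 with a library left out, and -0.0025 without the muscle libraries. Fabp4 over both treatments was -0.40 with RIN. Fabp4 between DEN/HFD saline and chow saline livers was -0.97 to 0.36 with a library left out and 0.36 without the muscle libraries. The replicate block changed no call of a member.

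Over both treatments, 153 genes were called in all (86 higher, 67 lower), against 166 (44 higher, 122 lower) after rescaling without mitochondrial transcripts, which moved the median of all genes by up to 0.19 in a comparison. The count was 0 with RIN, 56 with no filter, 69 with the replicate block, 392 with array weights, 140 without the muscle libraries and 6 to 460 with a library left out. At these depths 1 read was worth 0.747 to 1.59 normalized counts, so the values of Aqp7 and the lowest values of Mogat1, Vldlr and Hilpda rest on few reads.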
